A study of Mus musculus with 14 samples.

Results

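MLL1 is a histone methyltransferase that places methyl groups on lysine 4 of histone H3, and dimethylation at this residue (H3K4me2) marks promoters and enhancers. The peaks described here are the MLL1 peaks that lay away from that mark. They were chosen by position alone, as all autosomal peaks in the MLL1 list of DMSO-treated MAF9 cells that shared no base with a peak of any of the 4 H3K4me2 lists of the study. This left 3904 of 8482 autosomal MLL1 peaks, or 46.0% (Wilson 95% interval 45.0 to 47.1%). The other 4578 MLL1 peaks overlapped H3K4me2 in at least 1 list and serve as the comparison, called MLL1 peaks in H3K4me2 below.

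MAF9 cells are mouse bone marrow cells transduced with the MLL-AF9 fusion. They were treated for 2 days with the solvent DMSO or with MM-401 (MM401 in the list names) at 20 µM. A second cell type, MLL1 flox/flox and ER-Cre+/-, was treated for 2 days with the solvent EtOH or with 4OHT at 400 nM, which activates the Cre recombinase. Per the study, these cells carried MLL-AF9 as well, so no group lacked the fusion. Each of the 10 peak lists came from 1 chromatin immunoprecipitation sequencing (ChIP-seq) library per treatment and antibody. There were MLL1 lists for DMSO and MM-401, and lists of WDR5 and H3K4me2 for all 4 treatments. Deletion of Mll1 in the 4OHT cells could not be checked from peak positions, since there was no MLL1 list for these cells. With 1 library per treatment and antibody, no spread between replicates could be measured and no test between treatments was run.

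WDR5 is a core subunit of MLL family methyltransferase complexes and holds the catalytic part of MLL1 in its active form. MM-401 is a compound that keeps MLL1 from binding WDR5. The antibody used for MLL1 recognises the C-terminal fragment of the protein, a part that the MLL-AF9 fusion lacks, so the fusion is not detected. H3K4me2 is found around active and primed promoters and enhancers in blood cells, where MLL1 complexes are best known to act.

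The lists hold positions only, in the mm9 build, without heights, scores or read counts, so sequencing depth is unknown and presence in a list is the only readout. Intervals in the text are 95% Wilson intervals for shares and binomial order-statistic intervals for medians. They reflect counting error alone and take each peak as independent of its neighbours.

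Before any other value, the reach of the lists has to be given. On 7 autosomes, chromosomes 13 to 19, the other 9 lists ended together, within 0.0379 to 0.299 Mb of each other, while the DMSO MLL1 list ran on for another 0.636 to 16.5 Mb. On these chromosome ends lay 175 DMSO MLL1 peaks, and all 175 were outside H3K4me2 because no H3K4me2 peak was listed there. Chromosome 16 had the most of them, 45, and chromosome 15 the fewest, 6. On the other 12 autosomes no DMSO MLL1 peak lay past the other lists. Without these chromosome ends, 3729 of 8307 MLL1 peaks, or 44.9%, lay outside H3K4me2. The values below are for all 3904 peaks unless they are said to be inside the reach, which means the 3729 peaks.

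Membership changed little with the H3K4me2 list. Outside the DMSO list alone lay 4092 MLL1 peaks, against 4148 for MM-401, 4111 for EtOH and 4167 for 4OHT. Of the 4092 peaks outside H3K4me2 in DMSO, 188 overlapped H3K4me2 of another list. In the comparison group, 4111 of 4578 peaks, or 89.8%, were in H3K4me2 of all 4 lists. Since H3K4me2 chose the peaks, these counts are a description and not a finding.

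Few peaks lay at the border of the rule. Within 25 bp of H3K4me2, but outside it, lay 22 peaks. The 3 nearest were chr11:40502176-40502350 at a distance of 1 bp, chr3:129146678-129146836 at 3 bp and chr10:114832654-114832842 at 4 bp. On the other side, 12 MLL1 peaks shared at most 25 bp with H3K4me2, with the fewest, 6 bp, at chr15:95632570-95632729, followed by 12 bp at chr9:101064239-101064471 and at chr12:32993164-32993307. In contrast, 4388 of the 4578 peaks in H3K4me2, or 95.8%, lay wholly inside it.

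MLL1 peaks outside H3K4me2 were narrow and alike in width. Their median width was 176 bp (175 to 176 bp), with the middle of the distribution, from the 25th to the 75th percentile, between 159 and 187 bp and a full range of 68 to 1673 bp. MLL1 peaks in H3K4me2 had a median of 182 bp (181 to 183 bp). The medians differed by little, and the sets parted at the wide end. Only 20 peaks outside H3K4me2, or 0.512%, were at least 300 bp wide, against 146 peaks in H3K4me2, or 3.19%. Read the other way, 51.8% of all MLL1 peaks from 150 to below 200 bp were outside H3K4me2, 27.3% of those from 200 to below 300 bp, and 12.0% (20 of 166) of those of 300 bp or more. A wider peak has more bases with which to meet H3K4me2, and the part of this in the result was not tested. The median width was 176 bp within 1 kb of the mark and 176 bp beyond 50 kb.

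**Figure D1:**
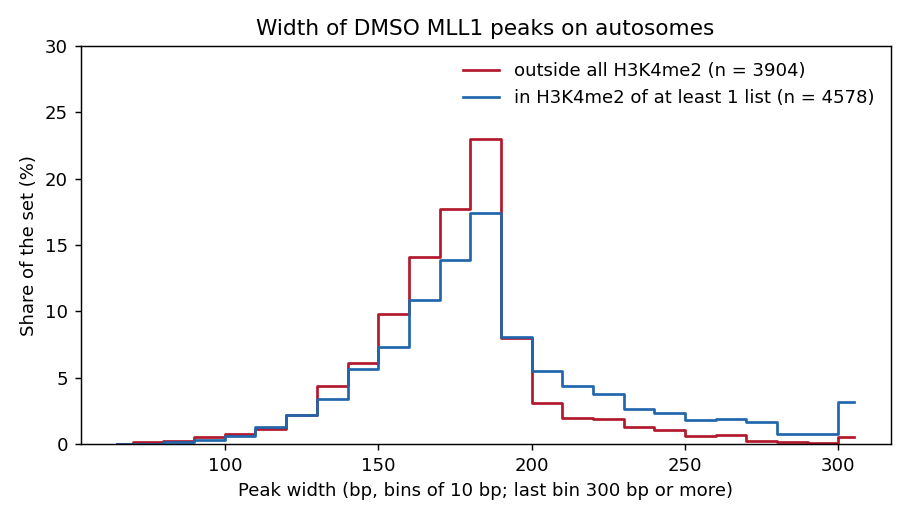
Width of DMSO MLL1 peaks on autosomes, in bins of 10 bp (horizontal axis, bp) as a share of each set (vertical axis, %), for the 3904 peaks outside all H3K4me2 (red) and the 4578 peaks in H3K4me2 (blue). Both sets peak below 200 bp, and the blue line stays above the red one at larger widths, with 3.19% against 0.512% in the last bin.

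The 5 widest peaks outside H3K4me2 lay on chromosomes 2, 4, 11 and 12. The widest, chr4:3016671-3018343 with 1673 bp, was 405 kb from H3K4me2 and was not overlapped by WDR5 of any list, the nearest being a 4OHT peak 6146 bp away. Next came chr2:98506379-98507479 with 1101 bp and chr12:68160118-68160994 with 877 bp. The latter was 1236 kb from H3K4me2 and overlapped by WDR5 in EtOH. The remaining 2 were chr2:98502376-98503169 with 794 bp and chr11:3001707-3002467 with 761 bp. Of these 5 peaks, 4 were overlapped by WDR5 in EtOH and none by MLL1 in MM-401.

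MLL1 peaks outside H3K4me2 were scattered singly. The median distance to the nearest peak of the same set was 174 kb (164 to 183 kb), whereas MLL1 peaks in H3K4me2 lay a median of 39.2 kb from each other (35.8 to 42.6 kb). Within 10 kb of another peak of the same set lay 6.30% of the peaks outside H3K4me2 and 29.8% of those in it. The rule itself places the sets in unlike amounts of sequence. Inside the reach, 2224 Mb were free of H3K4me2, with 1.68 peaks per Mb. H3K4me2 covered 125 Mb, with 36.5 MLL1 peaks per Mb. The part of this in the spacing was not tested. The nearest MLL1 peak of the other set was a median of 285 kb away. Inside the reach the median spacing was 182 kb. On chromosome 1 it was 113 kb, and on the other autosomes 196 kb.

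**Figure D2:**
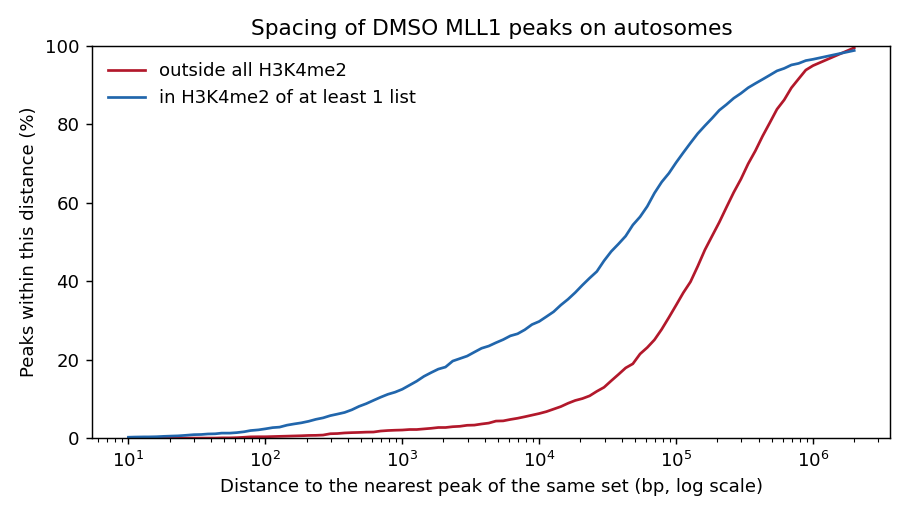
Cumulative share of DMSO MLL1 peaks (vertical axis, %) by distance to the nearest peak of the same set (horizontal axis, bp, log scale), for peaks outside H3K4me2 (red) and in H3K4me2 (blue). At 10 kb the red line is at 6.30% and the blue line at 29.8%.

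Joining peaks at most 10 kb apart left 3658 peaks alone and 102 clusters with 246 peaks. Of these clusters, 91 were pairs, 7 had 3 peaks, 2 had 4, 1 had 5 and 1 had 30. In comparison, the largest cluster of MLL1 peaks in H3K4me2 had 7 peaks, among 596 clusters. The cluster of 30 covered chr9:2999984-3036615, a stretch of 36.6 kb at the start of the assembled part of the chromosome. In mouse, the centromere sits at this end, and its satellite repeats are missing from the assembly. The 30 peaks were 93 to 528 bp wide, and the nearest H3K4me2 peak lay 298 kb away. WDR5 overlapped 23 of the 30 in EtOH, 8 in 4OHT, 2 in MM-401 and none in DMSO. MLL1 in MM-401 overlapped none of the 30, although 1 of its peaks came within 732 bp.

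The next clusters were smaller. The cluster of 5 was on chromosome 18, past the reach of the other lists. A cluster of 4 at chr2:98502376-98507479 had peaks of 349 to 1101 bp, and 3 of them were overlapped by WDR5 in both EtOH and 4OHT and 1 in MM-401. In all, 36 peaks outside H3K4me2 began within the first 0.2 Mb of the listed part of 5 chromosomes, 30 of them on chromosome 9, and 25 of the 36 were overlapped by WDR5 of some list. On these 5 chromosomes, 3 MLL1 peaks in H3K4me2 lay within that stretch. The input libraries were not analysed here, so signal at these places without an antibody was not tested. Overlaps with WDR5 and shares near WDR5 are therefore given with and without the chromosome 9 cluster.

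Chromosome 1 held more of these peaks than any other autosome. It carried 593 of the 3904, or 15.2% (14.1 to 16.3%), against 345 of the 4578 MLL1 peaks in H3K4me2, or 7.54% (6.81 to 8.34%). Inside the reach its share was 15.9% (14.8 to 17.1%), while it held 8.32% of the 2224 Mb that were free of H3K4me2. Per Mb free of H3K4me2, chromosome 1 had 3.20 peaks. The other 18 autosomes had a median of 1.48, from 1.33 on chromosome 16 to 2.09 on chromosome 19, so that chromosome 1 stood 2.17 times above their median. Of the sequence in H3K4me2 inside the reach, chromosome 1 held 7.05%. Its shares of MLL1 peaks outside and in H3K4me2 were not tested against each other.

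**Figure D3:**
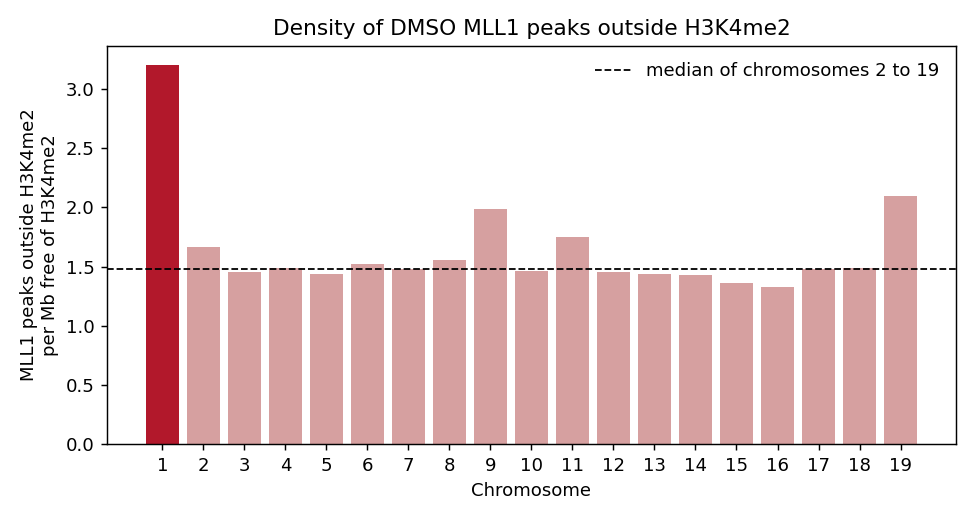
DMSO MLL1 peaks outside H3K4me2 inside the reach of the lists, per Mb free of H3K4me2 (vertical axis), for each autosome (horizontal axis). The dashed line is the median of the other 18 autosomes, 1.48, and chromosome 1 stands at 3.20.

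The high density ran along the whole of chromosome 1. In windows of 10 Mb, its 20 windows had 2.04 to 4.37 peaks per free Mb, with a median of 3.20. The 219 windows of the other autosomes had 0.100 to 4.78, with a median of 1.52. The highest of them, above every window of chromosome 1, was the first window of chromosome 9 with 33 peaks, which holds the cluster of 30 and had 0.434 per free Mb without it. The next highest had 3.13. All 20 windows of chromosome 1 were above that median, and 18 of the 20 were above the 90th percentile of the other windows, 2.36.

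The excess on chromosome 1 was in part shared by other lists. Among peaks outside H3K4me2, chromosome 1 was densest in MM-401 MLL1, at 1.58 times the median of the other autosomes, and in MM-401 WDR5, at 1.65 times. For DMSO WDR5 the ratio was 1.24, for EtOH WDR5 1.12 and for 4OHT WDR5 1.03. The DMSO WDR5 ratio rests on 59 peaks, and the interval of its chromosome 1 share was 7.98 to 12.9%. It holds the WDR5 shares of EtOH, 9.19%, 4OHT, 8.52%, and MM-401, 12.7%, and the MM-401 MLL1 share, 12.4%. MLL1 peaks in H3K4me2 were not dense on chromosome 1, with 39.0 per Mb of H3K4me2 against a median of 36.2 on the other autosomes.

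MLL1 peaks outside H3K4me2 thinned out with distance from the mark. Inside the reach they numbered 2.94 per Mb in the sequence within 1 kb of H3K4me2, 2.36 per Mb from there to 10 kb, 1.77 per Mb from there to 50 kb and 1.12 per Mb farther out. The last class is the largest, with 45.8% of the free sequence, and also holds the gaps of the assembly, which were not removed. Chromosome 1 differed in this respect. Within 1 kb of H3K4me2 its density was 3.15 per Mb, from 30 peaks, 1.08 times that of the other autosomes together. From 1 to 10 kb it was 3.84 per Mb and 1.72 times, from 10 to 50 kb 3.66 per Mb and 2.29 times, and beyond 50 kb 2.67 per Mb and 2.73 times. The excess on chromosome 1 was thus seen away from H3K4me2 and hardly next to it. For MM-401 MLL1 peaks outside H3K4me2 the same ratios were 1.44, 1.58, 1.60 and 1.62. Thinning with distance was not particular to DMSO MLL1. From within 1 kb to beyond 50 kb, MM-401 MLL1 peaks outside H3K4me2 fell from 12.4 to 4.34 per Mb. WDR5 peaks outside H3K4me2 fell from 1.86 to 0.0687 in DMSO and from 3.77 to 0.260 in MM-401. In EtOH they fell from 16.0 to 3.66, and in 4OHT from 23.9 to 4.58.

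To describe how close the peaks lay to H3K4me2, they were compared with positions of the same width moved by 10, 20, 30, 40 or 50 kb to either side. A moved position counted only if it too was outside H3K4me2 and inside the reach, which kept 3380 to 3447 positions in each of the 10 moves. Distance to H3K4me2 extends the measure that chose the peaks and is given as a description.

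The median distance to H3K4me2 of any list was 17.1 kb (15.3 to 18.7 kb), and inside the reach 14.8 kb (13.4 to 16.3 kb). Moved positions had medians of 18.1 to 20.0 kb, all above that of the peaks. Within 500 bp of H3K4me2 lay 6.01% of the peaks inside the reach, against 3.64 to 4.29% of moved positions. Within 2 kb the share was 16.7% against 11.9 to 13.7%, and within 10 kb 42.5% against 36.7 to 38.3%. At 50 kb the lead had shrunk to 69.4% against 66.5 to 67.4%. The H3K4me2 peaks within 2 kb had a median width of 438 bp, inside the range of 400 to 575 bp found for those near moved positions.

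**Figure D4:**
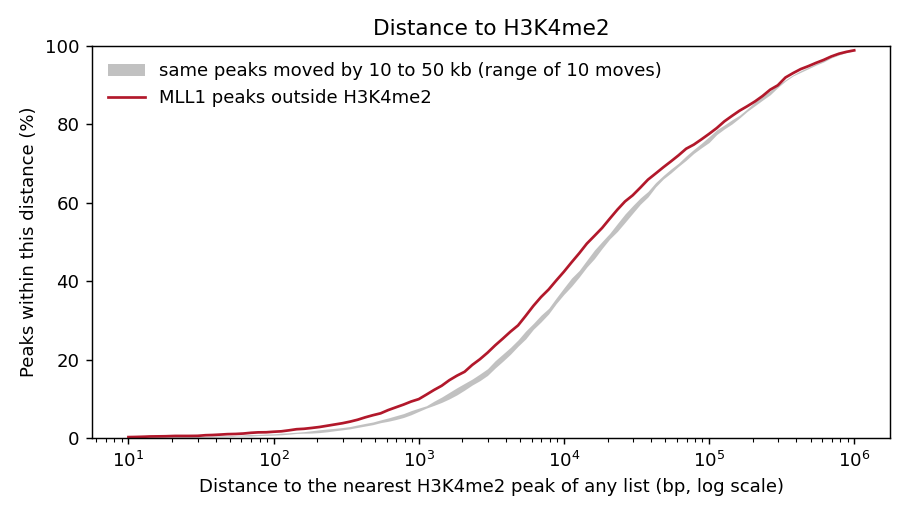
Cumulative share of peaks (vertical axis, %) by distance to the nearest H3K4me2 peak of any list (horizontal axis, bp, log scale), for the 3729 MLL1 peaks outside H3K4me2 inside the reach (red) and for the same peaks moved by 10 to 50 kb (grey band, lowest to highest of 10 moves). The red line runs above the band, with 16.7% against 11.9 to 13.7% at 2 kb.

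All 4 treatments showed this closeness in their own H3K4me2 list. Within 2 kb of DMSO H3K4me2 lay 13.9% of the peaks inside the reach and 9.95 to 11.5% of moved positions. For MM-401 the values were 12.0% and 8.72 to 10.6%, for EtOH 12.1% and 7.86 to 9.69%, and for 4OHT 10.8% and 7.57 to 9.05%. The share was lower in each treated list than in its solvent list, and so was the H3K4me2 covered by the list, with 97.2 Mb in DMSO and 90.8 Mb in MM-401, and with 101 Mb in EtOH and 91.2 Mb in 4OHT. Before the rule was applied to moved positions, 7.85% of them on average (7.32 to 8.39%) fell into H3K4me2. This was above the 5.33% of the span of the lists that H3K4me2 covers, and below the 21.6% (17.9 to 27.6%) for moved MLL1 peaks in H3K4me2.

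WDR5 was rare at these peaks. A WDR5 peak of any of the 4 lists overlapped 57 of the 3904 peaks, or 1.46% (1.13 to 1.89%), against 1329 of the 4578 MLL1 peaks in H3K4me2, or 29.0%. Over all autosomal MLL1 peaks the share was 16.3%. The rule favours this gap, since a peak outside H3K4me2 cannot meet WDR5 that lies wholly inside it. Of the 57, 23 were in the chromosome 9 cluster, and without that cluster 34 peaks remained, or 0.878% (0.629 to 1.22%). Inside the reach the share was 1.53%, above the 0.406 to 0.932% of moved positions. Without the cluster it was 0.919% (0.659 to 1.28%), and moved positions gave 0.410 to 0.823%, the highest of which lay inside that interval.

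The lists of WDR5 differed in how often they met these peaks. In DMSO, the library matched to the MLL1 peaks, WDR5 overlapped 3 peaks, or 0.0768%, against a background of 5.55% of all autosomal MLL1 peaks and 468 MLL1 peaks in H3K4me2, or 10.2%. In MM-401 it overlapped 5 peaks, or 0.128%, with a background of 5.59%. In EtOH 40 peaks were overlapped, or 1.02%, with a background of 6.78%, and in 4OHT 31, or 0.794%, with a background of 6.74%. The rule kept much of the WDR5 lists from these peaks. Outside H3K4me2 lay 4.05% of autosomal WDR5 peaks in DMSO, 8.67% in MM-401, 43.2% in EtOH and 47.9% in 4OHT. Inside the reach DMSO WDR5 overlapped 0.0805% of the peaks (0.0274 to 0.236%). Moved positions, held to the same rule, gave 0 to 0.0295%, the highest of which lay inside that interval. Without the chromosome 9 cluster the counts were 3 in DMSO, 3 in MM-401, 17 in EtOH and 23 in 4OHT. The order of EtOH and 4OHT thus turned when this one cluster was left out.

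The lists of the MLL1 flox/flox cells held far more peaks outside the mark. Outside H3K4me2 lay 579 WDR5 peaks in DMSO, 1479 in MM-401, 14668 in EtOH and 19373 in 4OHT. Seen from the WDR5 side, the share of these that overlapped an MLL1 peak was 0.518% (0.176 to 1.51%) in DMSO, 0.338% (0.144 to 0.789%) in MM-401, 0.245% (0.177 to 0.340%) in EtOH and 0.155% (0.108 to 0.221%) in 4OHT. The DMSO interval, which rests on 3 peaks, overlapped those of the other 3 lists. Without the chromosome 9 cluster the MM-401 share was 0.203%, the EtOH share 0.130% and the 4OHT share 0.124%. Of the 57 MLL1 peaks with WDR5, 50 had it only in the MLL1 flox/flox cells, 1 only in MAF9 cells, and 6 in both. Without the chromosome 9 cluster these counts were 29, 1 and 4. No peak had WDR5 in all 4 lists, 5 had it in 3 lists, 12 in 2 and 40 in 1, and without the cluster 3, 6 and 25.

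**Figure D5:**
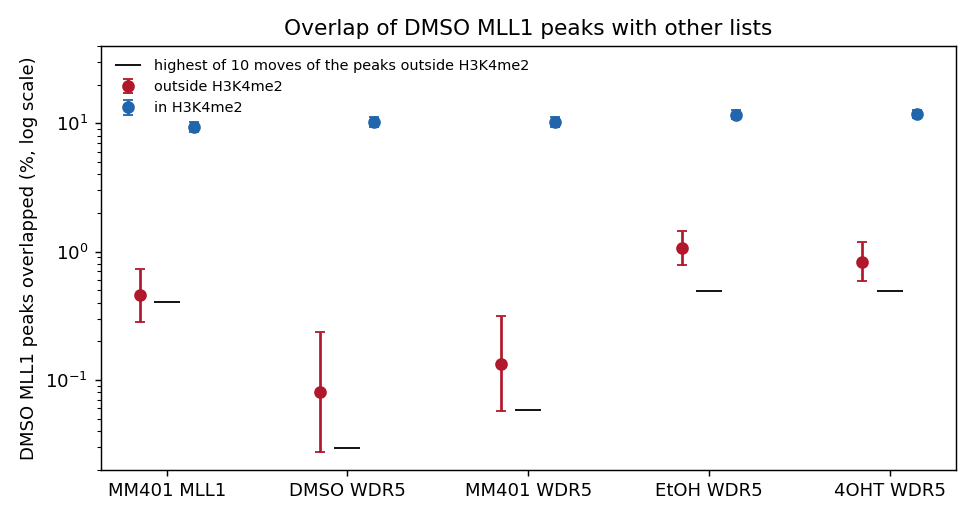
Share of DMSO MLL1 peaks overlapped by each of 5 other lists (vertical axis, %, log scale), for peaks outside H3K4me2 inside the reach (red) and in H3K4me2 (blue), with 95% Wilson intervals as bars. Black dashes are the highest value of 10 moves of the peaks outside H3K4me2, and the red points lie above the dashes but far below the blue points. The red bars of MM-401 MLL1, DMSO WDR5 and MM-401 WDR5 hold their dash. The chromosome 9 cluster is included. Without it EtOH WDR5 is at 0.460% (0.287 to 0.735%), with a highest move of 0.351%. For 4OHT WDR5 the value is then 0.622% (0.415 to 0.931%), with a highest move of 0.441%. Both intervals then hold the highest move.

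The 5 peaks with WDR5 in 3 lists were spread over 4 chromosomes. The peak chr2:98502376-98503169 was overlapped in MM-401, EtOH and 4OHT, and so were 2 peaks of the chromosome 9 cluster, chr9:2999984-3000277 and chr9:3027086-3027208. The peak chr13:3372182-3372589, 408 bp wide and 1137 bp from H3K4me2, was overlapped in DMSO, MM-401 and EtOH, and its nearest 4OHT WDR5 peak was 35107 bp away. The peak chr1:134394508-134394694, 187 bp wide and 7208 bp from H3K4me2, was overlapped in DMSO, EtOH and 4OHT, with the nearest MM-401 WDR5 peak at 20433 bp. Only the last 2 had WDR5 in DMSO, the treatment in which the MLL1 peaks were called.

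WDR5 of any list was frequent at the few wide peaks. Among the 20 peaks outside H3K4me2 of at least 300 bp, 11 were overlapped by WDR5 of some list, or 55.0% (34.2 to 74.2%), and among MLL1 peaks in H3K4me2 of this width 80 of 146 were, or 54.8% (46.7 to 62.6%). Without the chromosome 9 cluster the former count was 10 of 19. Among peaks from 150 to below 200 bp the shares were 0.741% and 25.4%. In DMSO alone, WDR5 overlapped 2 of the 20 wide peaks outside H3K4me2, or 10% (2.79 to 30.1%). It overlapped 37 of the 146 wide peaks in H3K4me2, or 25.3%, a value inside that interval. The near-equal shares for any list were thus not seen in DMSO alone, where the first share rests on 2 peaks. The share with WDR5 of any list was highest beyond 50 kb from the mark, but only with the chromosome 9 cluster. Inside the reach WDR5 overlapped 0.538% of peaks within 1 kb of H3K4me2, 0.661% from there to 10 kb, 1.49% from there to 50 kb and 2.80% beyond (32 of 1141). Without the cluster the last share was 0.810% (9 of 1111), with an interval of 0.427 to 1.53% that held the shares of the other 3 classes. The share from 10 to 50 kb was the same without the cluster, 1.49% (0.907 to 2.45%).

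The median distance to WDR5 of any list was 14.6 kb (13.7 to 15.5 kb), compared with 269 bp for MLL1 peaks in H3K4me2. Inside the reach it was 13.4 kb, against 15.4 to 16.6 kb for moved positions. Within 2 kb of WDR5 lay 11.1% of the peaks inside the reach and 8.80 to 10.7% of moved positions, and 48.1% of all autosomal MLL1 peaks. Without the chromosome 9 cluster the median was 13.6 kb, against 15.4 to 16.5 kb for moved positions, and the share within 2 kb was 10.4% (9.41 to 11.4%), against 8.80 to 10.3%. The lead within 2 kb was thus small without the cluster, and its interval held the highest moved value. By list, the share within 2 kb was 1.39% for DMSO WDR5 (moved positions 0.740 to 1.26%, all autosomal MLL1 peaks 23.8%) and 2.15% for MM-401 WDR5 (1.09 to 1.54%, and 25.5%). It was 5.52% for EtOH WDR5 (3.54 to 4.83%, and 31.2%) and 5.93% for 4OHT WDR5 (4.71 to 5.92%, and 33%), the last at the top of the range of moved positions. Without the cluster the shares were 1.41% for DMSO (moved positions 0.740 to 1.26%), 1.78% for MM-401 (1.09 to 1.44%), 4.76% for EtOH (3.54 to 4.46%) and 5.41% for 4OHT (4.75 to 5.57%), so that 4OHT lay inside the range of moved positions. Per list, the median distance over all 3904 peaks was 90.5 kb to DMSO WDR5, 76.7 kb to MM-401 WDR5, 32.5 kb to EtOH WDR5 and 29.0 kb to 4OHT WDR5, an order that followed the number of peaks in the lists. Nearness to WDR5 went along with nearness to H3K4me2. WDR5 was within 2 kb of 30.6% of peaks up to 1 kb from H3K4me2, and of 7.45% of those beyond 50 kb, or 4.95% of the latter without the chromosome 9 cluster.

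Recurrence of these MLL1 peaks in MM-401 was low. The MM-401 MLL1 list overlapped 17 of the 3904, or 0.435% (0.272 to 0.696%), against 431 of the 4578 MLL1 peaks in H3K4me2, or 9.41% (8.60 to 10.3%). Over all autosomal MLL1 peaks the share was 5.28%. Inside the reach the share was 0.456% (0.285 to 0.729%). Moved positions gave 0.117 to 0.407%, with a mean of 0.228%, and the highest of them lay inside the interval of the peaks. Counting MM-401 MLL1 peaks up to 2 kb away, the share inside the reach was 4.26%, within the 3.26 to 4.28% of moved positions. Without the chromosome 9 cluster it was 4.14% (3.54 to 4.83%), just above the 3.29 to 4.11% of moved positions. The highest moved value lay inside that interval. Among MLL1 peaks in H3K4me2 41.7%, and among all autosomal MLL1 peaks 24.4%, had an MM-401 MLL1 peak as near. The median distance to MM-401 MLL1 inside the reach was 32.1 kb, against 33.9 to 37.2 kb for moved positions and 3788 bp for MLL1 peaks in H3K4me2.

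The gap in recurrence was also seen among peaks of like width. Among peaks from 150 to below 200 bp, 0.423% of those outside H3K4me2 and 8.09% of those in it were overlapped by MM-401 MLL1. Of the 20 peaks of at least 300 bp outside H3K4me2 none was, against 27.4% of peaks of this width in H3K4me2. The DMSO and MM-401 MLL1 lists were made with different peak callers, so that treatment, library and caller cannot be told apart in this comparison.

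Low recurrence outside H3K4me2 was not the same for every pair of lists. Of the 14463 MM-401 MLL1 peaks outside H3K4me2, 17, or 0.118%, were overlapped by DMSO MLL1, against 3.59% of those in H3K4me2. WDR5 peaks of EtOH recurred in 4OHT in 3.35% of cases outside H3K4me2 and in 30.3% in it. For WDR5 of DMSO, 195 of 579 peaks outside H3K4me2, or 33.7% (29.9 to 37.6%), recurred in MM-401, against 40.6% of those in H3K4me2. In the other direction, 188 of 1479 MM-401 WDR5 peaks outside H3K4me2, or 12.7% (11.1 to 14.5%), recurred in DMSO, against 36.3% of those in it. These last lists had the fewest peaks outside the mark, 4.05% of autosomal peaks in DMSO WDR5 and 8.67% in MM-401 WDR5, compared with 46.0% in DMSO MLL1, 53.9% in MM-401 MLL1, 43.2% in EtOH WDR5 and 47.9% in 4OHT WDR5. Their peaks outside the mark also lay nearer to it. Within 1 kb of H3K4me2 lay 236 of the 579 in DMSO WDR5 and 478 of the 1479 in MM-401 WDR5. For EtOH WDR5 the count was 2021 of 14668, and for DMSO MLL1 inside the reach 372 of 3729. The part of this nearness in the recurrence was not tested.

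The 17 recurrent peaks lay on 10 chromosomes, with 5 on chromosome 1 and 4 on chromosome 7. They were 131 to 244 bp wide, with a median of 170 bp. Their distance to H3K4me2 ran from 108 bp to 1114 kb, with a median of 5013 bp. Of the 17, 4 were within 1 kb of the mark and 7 were over 10 kb away. None was in the chromosome 9 cluster. WDR5 overlapped 2 of them, both in 4OHT only. The first, chr7:31354053-31354290, was 3778 bp from H3K4me2, and its nearest WDR5 peak in EtOH was 5403 bp away. The second, chr8:26944208-26944338, was 5013 bp from H3K4me2, and its nearest WDR5 peak in EtOH was 6913 bp away. In DMSO, where the MLL1 peaks were called, WDR5 was 5928 bp from the first and 48308 bp from the second.

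The peak farthest from H3K4me2 inside the reach was on chromosome 18, 2057 kb from the mark. The next were chr4:38040047-38040219 at 1779 kb and chr14:89619207-89619361 at 1545 kb. Like most peaks outside H3K4me2, these 3 had no WDR5 and no MM-401 MLL1 on them. The nearest WDR5 peak of any list was a 4OHT peak 8222 bp from the chromosome 4 peak. The largest distances over all peaks, up to 16.5 Mb on chromosome 14, belonged to the chromosome end that the other lists did not reach.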

How the data were processed

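Of 14 samples, 10 were ChIP libraries with 1 deposited peak list each, and the 4 inputs were not analysed here. The authors deposited the chromosome, start and end of each peak, called on single libraries, with no score or signal. The submitters' processing notes name Bowtie, without a version, and mm9. Per the study, DMSO MLL1 peaks were called with MACS, and a stricter cutoff of this caller left far fewer of them. Which peaks passed the stricter cutoff cannot be told from the list. The other 9 lists carry HPEAK names and a grid of 25 bp, and were read as 1-based. DMSO MLL1 starts were read as 0-based and are printed 1-based. For the HPeak lists, thresholds are not given in the sources used here. No annotation or sequence of mm9 was used, so positions carry no gene names.

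Peaks sharing at least 1 bp were counted as overlapping, with Python 3.11.15, numpy 2.4.6 and scipy 1.17.1. Figures were drawn with matplotlib 3.10.9. The overlap code was tested on simulated data and against bedtools 2.31.1. Moves were fixed steps of 10 to 50 kb. Free sequence was counted between the first and last peaks of the lists. No p-value is given, because each treatment and antibody had 1 library. Alternatives covered the overlap rule, the H3K4me2 and WDR5 lists used, distances to H3K4me2, and chromosome 1. Leaving out chromosome ends that the lists do not reach, leaving out the chromosome 9 cluster, densities by distance and overlaps seen from the WDR5 side were chosen after seeing the data. Positions named were the 5 widest peaks, those with most WDR5 lists, those with both MM-401 MLL1 and WDR5, the 3 nearest to and farthest from H3K4me2, and the 3 clusters with most peaks. On chromosome 18 no positions are printed. The peaks and comparisons were chosen with earlier results of these data known.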

Additional observations from a re-analysis of the deposited data

Results flagged for a closer look

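The share of MLL1 peaks outside H3K4me2 that were overlapped by WDR5 moved in opposite directions under the treatments. It was higher in MM-401 than in DMSO by 0.0512 percentage points (0.128% against 0.0768%, or 5 against 3 peaks). It differed between 4OHT and EtOH by -0.231 percentage points (0.794% against 1.02%, or 31 against 40 peaks). The difference was not tested, with 1 library per treatment. Without the chromosome 9 cluster the first difference was 0 and the second 0.155 percentage points, so the opposite directions rest on that cluster.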

How the results depend on the processing

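No paired analysis was possible because each treatment and antibody had 1 library. For the same reason no library could be left out, and the depth behind the peaks is unknown. Of the alternative values, 32 stayed inside the counting interval of the main value, 2 on moved positions changed by less than the spread between moves, and 18 left the interval. The number of peaks ran from 3280 to 4092 over 6 alternatives, within 1.5 times the 3904 but in part outside its counting interval. The order of EtOH and 4OHT in overlap with WDR5 turned without the chromosome 9 cluster, from a 4OHT minus EtOH difference of -0.231 to 0.155 percentage points. The cause of these moves was not tested unless the alternative's own construction shows it. The median spacing of 174 kb became 197179 bp and 212584 bp when peaks with H3K4me2 within 1 kb or 2 kb were left out, 163253 bp when the DMSO H3K4me2 list alone chose the peaks, and 195820 bp without chromosome 1. The median distance to H3K4me2 became 19809 bp with the DMSO list alone, 25493 bp with the wider 50% of each H3K4me2 list and 14754 bp inside the reach. The median distance to WDR5 became 57567.5 bp with the DMSO and MM-401 lists only, 18539 bp for peaks with no H3K4me2 within 2 kb and 13402 bp inside the reach. Counting peaks up to 2 kb apart gave 4.07% for MM-401 MLL1, 10.6% for WDR5 of any list and 1.33% for DMSO WDR5. Asking for 50% of the MLL1 peak to be covered gave 0.102%, 1.08% and 0.0256%. WDR5 of any list fell to 0.878% without the chromosome 9 cluster, and DMSO WDR5 to 0 when only the wider 50% of its list was used.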

Other observations

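The 43 DMSO MLL1 peaks off the autosomes were not part of the comparisons. On chromosome X 17 of 31 peaks lay outside H3K4me2, 2 of them past the end of the other 9 lists, and on chromosome Y all 9 did. The 3 mitochondrial peaks were outside by construction, since the other 9 lists hold 0 peaks there. The chromosome Y peaks were 74 to 3386 bp wide, and MLL1 in MM-401 overlapped 3 of them and WDR5 of some list 3. The mitochondrial peaks were 1666 to 4705 bp wide.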
